A study of Mus musculus with 6 samples.

Results

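The 8 genes described here encode ATF4, the central transcription factor of the integrated stress response, and the factors that act with it: Atf4, Atf3, Atf5, Ddit3, Cebpb, Cebpg, Trib3 and Nupr1. They were taken by gene symbol, and each had 1 row among the 34745 genes of the deposited table. All 8 had enough counts to be tested. Expression was measured by RNA sequencing in 6 libraries of cultured mouse spermatogonial stem cells, the germline cells that sustain sperm production. In 3 libraries the cultures had been given bisphenol A (BPA), a plastics monomer, at 100 µM for about 4 days, and in 3 they were untreated. Strain (DBA/2J X c57BL/6J), age at postnatal day 6 and passage (15 to 20) are labelled alike in both groups, and the titles of the untreated samples name no vehicle, so any solvent and BPA cannot be told apart.

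In the integrated stress response, kinases that sense protein misfolding, amino acid shortage or other stresses phosphorylate the translation factor eIF2α. General protein synthesis falls, while translation of the Atf4 message increases through upstream reading frames in its leader. ATF4 is a basic leucine zipper (bZIP) protein that binds DNA as a dimer, often with a C/EBP protein, and induces genes of amino acid supply together with further transcription factors. Transcript counts measure the messages of these factors, not the amount or activity of the proteins.

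Library totals were 14232872 to 22286517 counts in BPA and 13453280 to 19183912 counts in untreated cultures. Levels are read counts normalised to library size (CPM). Fold changes divide BPA by untreated and carry a standard error (SE), and a change is called at an edgeR adjusted p under 0.05. BPA replicate 2 stood apart: the chi-square per degree of freedom between its counts and those of the other BPA libraries was 69.5 and 94.7, against 23.1 for the remaining BPA pair and 19.0 to 25.5 for the untreated pairs. Labels do not say whether replicates were separate cultures or animals, so p-values measure the spread between these samples, which may be technical. Of 10 spermatogonial markers none was at 0 counts in all libraries, and their summed level was 1463 to 1887 CPM in BPA and 1520 to 1567 CPM in untreated cultures. Single markers differed in both directions: Sall4 was called higher (0.82 on the log2 scale, edgeR adjusted p = 0.0379), and Id4 (12.0, 13.9 and 13.5 CPM in BPA, against 23.8, 24.8 and 30.5 CPM in untreated libraries, edgeR adjusted p = 0.0401) and Dnd1 (-0.57, edgeR adjusted p = 0.0309) lower. Id4 and Dnd1 kept their calls only when BPA replicate 2 was the library left out, and Sall4 only when BPA replicate 2 or 3 was (edgeR adjusted p at most 0.151, 0.144 and 0.163 for Id4, Dnd1 and Sall4), a check added after the values were seen. Markers of other cell types were present at lower sums. For 8 Sertoli cell genes the sum was 66.1 to 98.0 CPM in BPA and 34.5 to 53.4 CPM in untreated cultures, with Fshr and Rhox5 at 0 counts. Tjp1 supplied much of it (52.0, 20.1 and 62.3 CPM in BPA, against 27.4, 14.8 and 31.8 CPM in untreated libraries). Amh was at most 0.524 CPM. Within this list Sox9 was higher in every BPA library, at 20.6 to 30.2 CPM in BPA and at most 8.99 CPM in untreated cultures, and was called, though not without untreated replicate 1 (edgeR adjusted p = 0.0594). Amhr2 was lower in every BPA library, with 0.655, 3.27 and 1.22 CPM in BPA and 8.11, 6.20 and 5.15 CPM in untreated cultures, and did not pass (edgeR adjusted p = 0.113). For 10 fibroblast genes the sum was 224 to 476 CPM in BPA and 302 to 355 CPM in untreated cultures. Fn1 made up much of it, at 168 to 385 CPM in BPA and 190 to 219 CPM in untreated cultures. Col1a2 and Col3a1 were lower in every BPA library (-0.76 and -1.89 on the log2 scale) and did not pass (edgeR adjusted p = 0.127 and 0.0715). No gene of this list was higher in every BPA library. For 6 macrophage genes the sum was 29.8 to 43.3 CPM in BPA and 56.5 to 60.6 CPM in untreated cultures. Most of it was Cd68 (26.3 to 43.0 CPM in BPA and 49.0 to 53.4 CPM in untreated cultures, edgeR adjusted p = 0.14). Lyz2 was also lower in every BPA library (0.655, 0.198 and 3.51 CPM, against 6.57, 7.53 and 6.17 CPM in untreated libraries) and did not pass (edgeR adjusted p = 0.141). Ptprc, Adgre1 and Csf1r were at most 0.943 CPM in any library, and Tyrobp was at 0. For 5 endothelial genes the sum was 3.60 to 10.2 CPM in BPA and 11.2 to 15.9 CPM in untreated cultures, with Emcn at 0. Most of it was Pecam1 (2.55 to 7.09 CPM in BPA and 9.81 to 13.6 CPM in untreated cultures), which did not pass (edgeR adjusted p = 0.127). No other gene of the endothelial list was lower in every BPA library. Leydig cell genes summed to at most 1.30 CPM in BPA and 0.986 CPM in untreated cultures, and 4 of 6 were at 0. The part of these cells in the results below was not tested, and in bulk RNA more cells of a type and more RNA per cell cannot be told apart.

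All 8 genes were higher in every BPA library than in every untreated one. This held for 15.6% of the 13287 genes tested, and the opposite, every BPA value below every untreated one, for 15.7%. Of the 8 genes, 6 passed the test as higher and 0 as lower, where 4.37% of all tested genes passed as higher and 6.28% as lower. Trib3, Atf4, Atf3, Ddit3, Atf5 and Cebpb rose, and Nupr1 and Cebpg missed the threshold. The median log2 fold change of the 8 was 3.09, against 0.10 over all tested genes. Scaling by library size alone moved that overall median to 0.21. The number called was 7 without BPA replicate 2 or untreated replicate 3, 6 without BPA replicate 1 or 3, and 5 without untreated replicate 1 or 2.

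**Figure D1:**
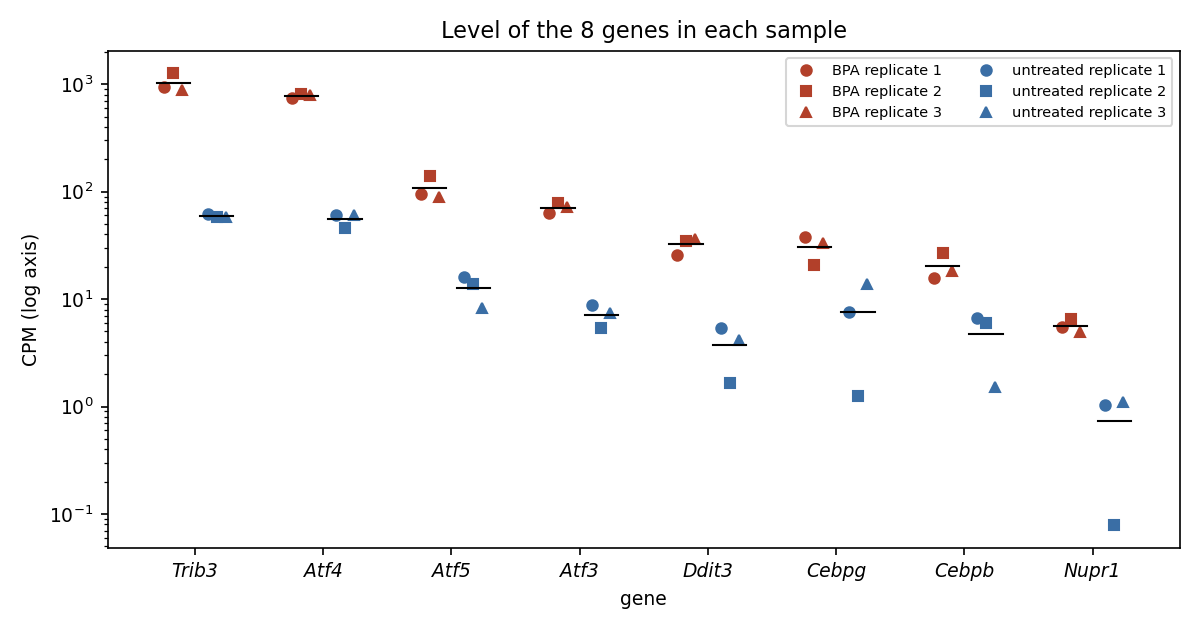
Level of the 8 genes in CPM (log axis) in each BPA sample (red, left) and untreated sample (blue, right), with symbols for replicates 1 to 3 and black lines for group means. Every red point lies above every blue point of the same gene, and the low untreated points of Cebpg and Nupr1 (1.26 and 0.0785 CPM) belong to replicate 2.

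Atf4 (ENSMUSG00000042406, chromosome 15, 80255184 to 80257540, plus strand, mm10) had 750, 809 and 787 CPM in BPA replicates 1 to 3, against 60.0, 46.1 and 61.1 CPM in untreated replicates 1 to 3. The BPA libraries lay close together, with a coefficient of variation of 3.80%, and the lowest of them was 12.3-fold above the highest untreated library. The log2 fold change was 3.81 (SE 0.17, edgeR adjusted p = 1.2e-07), which is 14.0-fold. By p-value it ranked at position 2 of all tested genes, behind Trib3 at position 1. No annotated exon of another gene overlaps its exons.

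Trib3 (ENSMUSG00000032715, chromosome 2, 152337422 to 152344032, minus strand) encodes a pseudokinase that is induced by ATF4 and CHOP and in turn restrains ATF4 activity. It had 948, 1263 and 885 CPM in BPA libraries, against 61.6, 58.6 and 58.6 CPM in untreated libraries. Among untreated libraries it varied least of the 8 genes, with a coefficient of variation of 2.90%, and among BPA libraries replicate 2 was the highest. The change was 17.3-fold (log2 fold change 4.11, SE 0.18, edgeR adjusted p = 1.2e-07), the largest of the 8 by fold. Its relatives Trib1 and Trib2 did not pass the test. Trib1 was at 33.7 ± 12.8 CPM in BPA and 38.2 ± 3.93 CPM in untreated cultures (SD, n = 3 each), and its small difference (-0.18) changed sign without BPA replicate 3 (0.04).

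Atf3 (ENSMUSG00000026628, chromosome 1, 191170296 to 191218039, minus strand) encodes a bZIP factor that often acts as a repressor and is induced early in many stresses. It had 63.0, 78.3 and 71.4 CPM in BPA libraries, against 8.82, 5.34 and 7.40 CPM in untreated libraries. The groups were 7.14-fold apart at their nearest values. It rose by a log2 fold change of 3.30 (SE 0.27, edgeR adjusted p = 2.2e-05).

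Atf5 (ENSMUSG00000038539, chromosome 7, 44812256 to 44816599, minus strand) encodes the closest relative of ATF4, itself under translational control and linked to mitochondrial stress. It had 95.4, 139 and 89.1 CPM in BPA libraries, against 16.2, 13.8 and 8.35 CPM in untreated libraries. BPA replicate 2 was the highest and untreated replicate 3 the lowest. The log2 fold change was 3.07 (SE 0.29, edgeR adjusted p = 7.1e-05). Of its annotated exon bases 4.1% are shared with other annotated genes. On the opposite strand Nup62 and Il4i1 each share 82 bases. Il4i1 had 6949 to 15332 counts in the libraries, and Atf5 had 115 to 296 in untreated ones.

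Ddit3 (ENSMUSG00000025408, chromosome 10, 127290774 to 127296288, plus strand) encodes CHOP, a C/EBP-related factor tied to cell death in prolonged stress. It had 25.7, 35.0 and 36.1 CPM in BPA libraries, against 5.37, 1.65 and 4.14 CPM in untreated libraries. Untreated replicate 2 was the lowest, and the groups were 4.78-fold apart at their nearest values. The log2 fold change was 3.10 (SE 0.42, edgeR adjusted p = 8.4e-04). Of its annotated exon bases 10.9% are shared with other annotated genes. The largest overlap, 105 bases, is with a second annotated protein-coding gene of the same symbol on the same strand, which was not analysed here. Mars on the opposite strand shares 68 bases, and its counts also rose. The library kit does not mark strand.

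The C/EBP partners had the smallest estimated fold changes of the 8. Cebpb (ENSMUSG00000056501, chromosome 2, 167688915 to 167690418, plus strand), which encodes the dimer partner C/EBPβ, had 15.8, 26.6 and 18.4 CPM in BPA libraries, against 6.63, 6.04 and 1.52 CPM in untreated libraries. It rose by a log2 fold change of 2.10 (SE 0.50, edgeR adjusted p = 0.0214). That call was lost without untreated replicate 1 (edgeR adjusted p = 0.0608) and without untreated replicate 2 (0.0567 in edgeR). The exons of Cebpb share 20.7% of their bases with Tmem189 on the opposite strand, so its level is less certain.

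Cebpg (ENSMUSG00000056216, chromosome 7, 35046422 to 35056573, minus strand) encodes C/EBPγ, a short C/EBP protein that pairs with ATF4. It had 37.6, 20.8 and 33.4 CPM in BPA libraries, against 7.51, 1.26 and 13.9 CPM in untreated libraries. The groups did not overlap but were only 1.49-fold apart at their nearest values, and the untreated libraries varied by 83.8% of their mean. The log2 fold change of 2.01 (SE 0.60) missed the threshold (edgeR adjusted p = 0.0512). It passed without BPA replicate 2 (edgeR adjusted p = 0.0237) and without untreated replicate 3 (0.0436 in edgeR). Other members of the family, Cebpa and Cebpd, chosen after their values were seen, were at 17.1 ± 6.31 and 11.1 ± 2.00 CPM in BPA cultures, against 11.6 ± 2.35 and 11.3 ± 3.66 CPM in untreated cultures (SD, n = 3 each), and neither passed.

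Nupr1 (ENSMUSG00000030717, chromosome 7, 126623249 to 126630861, minus strand) encodes a small chromatin-associated stress protein. It was the rarest of the 8, with 84, 132 and 122 counts in BPA libraries and 19, 1 and 15 counts in untreated libraries. As levels these were 5.50, 6.54 and 4.97 CPM in BPA, against 1.04, 0.0785 and 1.09 CPM in untreated libraries. The log2 fold change of 2.92 (SE 0.88) missed the threshold (edgeR adjusted p = 0.0541). The ratio of the summed counts, scaled to library size, was 7.21, with an exact 95% interval of 5.08 to 10.5 that covers counting error only. The related gene Nupr1l did not pass, with 3.85 ± 0.672 CPM in BPA and 4.28 ± 2.71 CPM in untreated cultures (SD, n = 3 each). Its difference of -0.15 on the log2 scale turned to 0.55 without untreated replicate 3.

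**Figure D2:**
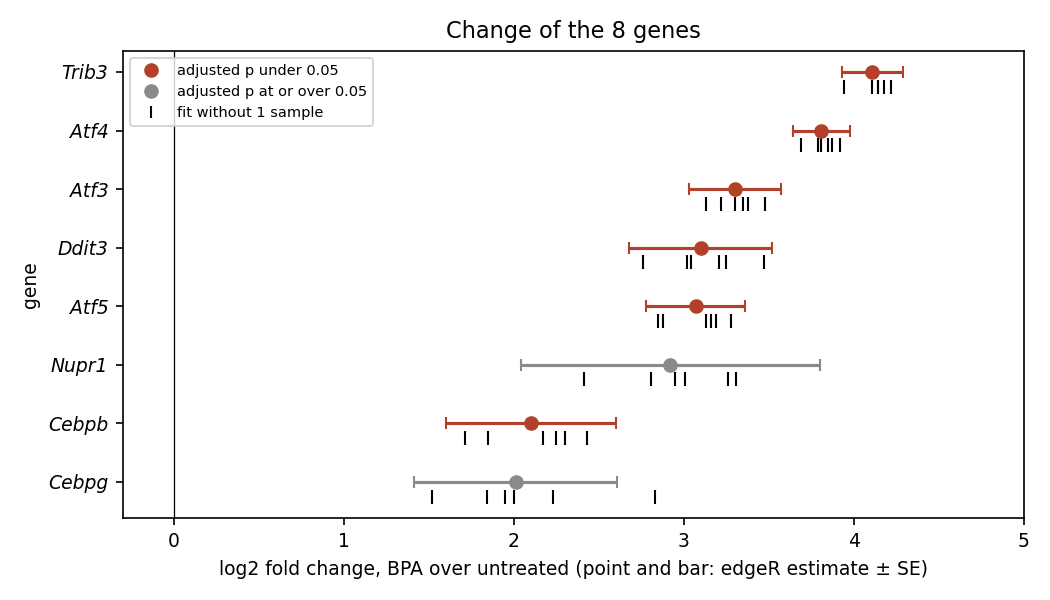
Log2 fold change of each gene, BPA over untreated, as the edgeR estimate with its SE (red where the adjusted p was under 0.05, grey otherwise) and, as black ticks, the estimates without each sample in turn. All estimates lie above 1.5, with Trib3 at 4.11 and Cebpg at 2.01 as the ends of the range.

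Levels can be compared between genes only per length, and were set as CPM divided by gene length in kilobases (CPM per kb), with the gene lengths behind the deposited FPKM values. The exon bases annotated in GENCODE vM21 differ from these lengths: 2358 against 1724 for Atf4, 2125 against 3169 for Trib3 and 2514 against 5098 for Nupr1. With the GENCODE vM21 bases the mean of Trib3 would stand above that of Atf4 in both groups. The order and ranks below therefore hold only for the lengths behind the FPKM values. In BPA cultures the order was Atf4 (454 ± 17.2 CPM per kb), Trib3 (326 ± 63.9), Atf5 (33.7 ± 8.43), Atf3 (27.7 ± 2.99), Ddit3 (14.0 ± 2.49), Cebpb (13.5 ± 3.74), Cebpg (4.00 ± 1.15) and Nupr1 (1.11 ± 0.156; SD, n = 3 for each). Neighbours in this order overlapped between libraries for Atf5 and Atf3 and for Ddit3 and Cebpb. In untreated cultures Atf4 (32.3 ± 4.87 CPM per kb) and Trib3 (18.8 ± 0.545) again came first, and from Atf5 (4.00 ± 1.26) downward every pair of neighbours overlapped between libraries. Within each untreated library, though, Atf5 was above Cebpb, Atf3 above Ddit3 and Cebpg above Nupr1. Cebpb and Atf3, and Ddit3 and Cebpg, changed order in untreated replicate 3. Among all tested genes, Atf4 held rank 82 by level per length in BPA and rank 1664 in untreated cultures, and Trib3 rank 130 in BPA and rank 2567 in untreated cultures. Summed over the 8 genes the level was 816, 978 and 825 CPM per kb in BPA libraries, against 70.7, 56.5 and 64.3 CPM per kb in untreated libraries.

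Relative to Atf4, the message of Trib3 stood at a ratio of 0.687, 0.849 and 0.611 per length in BPA libraries, against 0.558, 0.692 and 0.521 in untreated libraries, and the groups overlapped. The size of such a ratio depends on the gene lengths used, but its comparison between groups does not. Atf3 stood at 0.0565, 0.0651 and 0.0610 of Atf4 in BPA libraries, against 0.0988, 0.0779 and 0.0815 in untreated libraries. Atf3 was thus lower relative to Atf4 in every BPA library than in every untreated one, although its own level rose. By log2 fold change Atf4 ranked at position 66 of all tested genes, so most genes fell relative to it. How many other genes showed such a separation was not counted. The ratio of Cebpb to Atf4 was 0.0242, 0.0377 and 0.0268 in BPA libraries, against 0.127, 0.150 and 0.0286 in untreated libraries, and overlapped. For Atf5, Ddit3, Cebpg and Nupr1 the ratio to Atf4 also overlapped between groups. With 3 libraries a group a two-sided exact permutation test of such a ratio cannot go below p = 0.1, so none was run.

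Replicates of a group did not order the 8 genes alike. In the BPA group, replicate 2 was the highest for 6 genes (Atf4, Atf3, Atf5, Cebpb, Trib3 and Nupr1) and the lowest for Cebpg. In the untreated group, replicate 2 was the lowest for 5 (Atf4, Atf3, Ddit3, Cebpg and Nupr1) and replicate 3 for the other 3. Over the 6 libraries, deviations of Ddit3, Nupr1, Atf3 and Cebpg from their group means had Pearson r = 0.95, 0.97, 0.91 and 0.86 with those of Atf4. For Atf5, Cebpb and Trib3 the r was -0.17, -0.38 and 0.22. Untreated replicate 2 was the lowest untreated library for Atf4 and for each of the 4 genes with high values, which may rest on it. Among BPA libraries Atf4 varied little (coefficient of variation 3.8%), and Cebpg was lowest where Atf4 was highest. The r without untreated replicate 2 was not computed. These are descriptions over 6 libraries, and all 8 genes were measured in the same ones.

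Over the 6 samples, the genes outside the 8 whose log2 CPM ran most like that of Atf4 were Bex1, Neo1, Mthfd2, Iars and Stc2, with a Pearson r of 0.999 for Bex1, 0.998 for Neo1 and 0.997 for the other 3. Of 11826 genes compared, 26 had an r of at least 0.99, and with 2 groups so far apart this measure mostly follows the group difference. Bex1 had 21.3, 23.3 and 21.9 CPM in BPA libraries, against 8.71, 7.77 and 8.85 CPM in untreated libraries. It was 1 of 80 genes among those compared that ordered the 6 samples exactly as Atf4 did. Neo1, which encodes the receptor neogenin, differed less between groups (log2 fold change 0.76). Among the 8 genes, Atf3 and Trib3 were most like Atf4 (r = 0.997 and 0.996), and Cebpg least (0.817).

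The upstream sequences of Atf3, Trib3 and Nupr1 are shown because they hold, near the start of these genes, letters of the C/EBP-ATF response element (CARE), the DNA element that ATF4 dimers are known to bind. They are the 250 bases before the RefSeq transcript start on GRCm38.p6, written 5′ to 3′ on the gene's own strand, and capitals mark the match.
Atf3 (chr1:191183334-191183583, minus strand): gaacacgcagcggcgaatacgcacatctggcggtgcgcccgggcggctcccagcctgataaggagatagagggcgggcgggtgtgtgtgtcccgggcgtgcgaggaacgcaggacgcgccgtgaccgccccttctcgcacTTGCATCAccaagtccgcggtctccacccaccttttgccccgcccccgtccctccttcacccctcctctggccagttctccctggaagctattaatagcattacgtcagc
Trib3 (chr2:152344061-152344310, minus strand): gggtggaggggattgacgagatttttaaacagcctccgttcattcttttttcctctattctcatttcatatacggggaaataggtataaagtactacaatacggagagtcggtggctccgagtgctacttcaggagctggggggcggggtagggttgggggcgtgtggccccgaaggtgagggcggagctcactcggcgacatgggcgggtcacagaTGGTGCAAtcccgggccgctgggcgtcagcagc
Nupr1 (chr7:126625471-126625720, minus strand): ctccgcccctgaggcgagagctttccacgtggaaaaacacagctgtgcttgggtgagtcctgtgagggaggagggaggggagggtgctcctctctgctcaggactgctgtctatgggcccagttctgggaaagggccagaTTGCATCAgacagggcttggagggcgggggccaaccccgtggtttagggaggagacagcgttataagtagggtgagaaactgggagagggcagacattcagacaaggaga
The core TGATGCAA, searched on both strands of the 300-base windows from 250 before to 50 after each start, was found for Atf3 and Nupr1. In both it lies at position -110 on the opposite strand, so the gene's own strand, printed above, reads TTGCATCA. Windows holding this core made up 0.895% of the 32851 windows of all genes. With the third base left free (TGNTGCAA, which includes the core), Trib3 also matched, with TGGTGCAA at position -33, and 3.22% of all windows did. This looser form was chosen with the sequences in view. Atf4, Atf5, Ddit3, Cebpb and Cebpg had no match to either form in these windows, and none of the 8 held the cAMP response element TGACGTCA (1.79% of all windows) or the endoplasmic reticulum stress element, which is CCAAT, 9 free bases and CCACG (0.119%). The RefSeq starts of Atf3 and Nupr1 lie inside the spans of the deposited table, which reach further upstream. A match is only a run of letters and does not show binding.

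Known targets of ATF4 rose with it. Of 40 such genes, a list that leaves out the 8, 35 were higher and 0 lower, against 4.37% and 6.28% of all tested genes, with a median log2 fold change of 2.00. Of the 35, 29 passed without each library in turn. Asns, which makes asparagine, was at 1768 ± 206 CPM in BPA and 262 ± 9.53 CPM in untreated cultures (SD, n = 3 each; log2 fold change 2.75). Pck2, the mitochondrial phosphoenolpyruvate carboxykinase, was at 556 ± 122 CPM in BPA and 42.8 ± 1.66 CPM in untreated cultures (3.70, SE 0.19, edgeR adjusted p = 3.7e-07). Mthfd2, a mitochondrial folate enzyme, rose by 2.60 and Herpud1, of endoplasmic reticulum degradation, by 3.70. Chac1, which degrades glutathione, showed one of the largest changes (5.96, SE 0.36). Stc2, which encodes the secreted glycoprotein stanniocalcin 2, had 1758 counts in BPA libraries and 1 count in untreated libraries together, a ratio of 1312 with an exact 95% interval of 235 to 51863 for counting error. The 1 count was in untreated replicate 3. Without that library the fitted log2 fold change of Stc2 was 12.04, against 9.91 with it, and both depend on the prior count and are no bounds. The 5 that did not pass, named after their values were seen, were Fgf21 (4.00, edgeR adjusted p = 0.0608), Aldh1l2 (1.90), Cth (1.19), Slc38a2 (0.11) and Wars (-0.11). Of the targets, 30 had a promoter window and 9 of these held TGATGCAA: Aars, Chac1, Fgf21, Herpud1, Pycr1, Slc7a11, Tars, Vldlr and Yars.

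**Figure D3:**
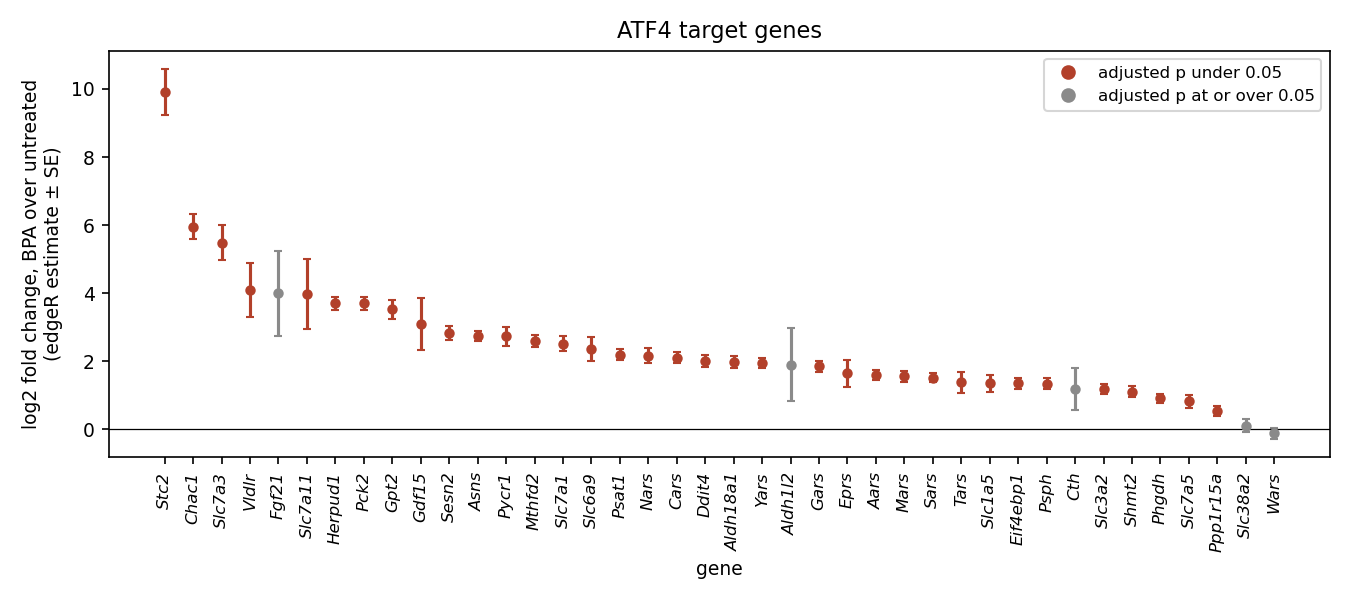
Log2 fold change, BPA over untreated, of the 40 ATF4 target genes with SE, ordered by size, red where the adjusted p was under 0.05 and grey otherwise. Most lie above 1, and Slc38a2 and Wars lie near 0. The position of Stc2 depends on the prior count, since it had 1 count in untreated libraries.

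Of 46 other bZIP genes listed, 41 could be tested, and 9 were higher and 1 lower, against 4.37% and 6.28% of all tested genes, with a median log2 fold change of 0.46. Jdp2, which encodes a small AP-1 partner and repressor, rose most among those called (26.6 ± 2.60 CPM in BPA and 5.04 ± 1.51 CPM in untreated cultures, SD, n = 3 each; 2.40, SE 0.34, edgeR adjusted p = 0.00116). Nfe2l1, which encodes the regulator of proteasome genes NRF1, rose by 0.89 (SE 0.16, edgeR adjusted p = 0.00457). These 2 were the calls that passed without each library in turn. The AP-1 genes Fos, Fosb, Jun and Junb rose by 1.32, 1.58, 1.47 and 0.74. All 4 missed the threshold when untreated replicate 1 was left out (edgeR adjusted p = 0.0915, 0.111, 0.0586 and 0.0597). The same happened to Fos for untreated replicate 3 and BPA replicate 1, to Fosb for untreated replicates 2 and 3 and BPA replicate 1, to Jun for untreated replicate 2 and BPA replicates 1 and 3, and to Junb for untreated replicate 2 (at most 0.0915, 0.111, 0.0647 and 0.0597 in edgeR). The other calls, named after their values were seen, were Fosl2 (0.96), Crebrf (1.64) and Nfil3 (0.91) as higher and Batf3 (-1.66) as lower. Fosl2 missed the threshold when any untreated replicate or BPA replicate 1 was left out (edgeR adjusted p at most 0.106). Crebrf kept its call only when BPA replicate 2 was the library left out (at most 0.202 in edgeR otherwise). Nfil3 and Batf3 each missed it in all 6 such fits (at most 0.165 and 0.172 in edgeR). Leaving out BPA replicate 1 gave 3 higher genes, and leaving out untreated replicates 1, 2 and 3 gave 2, 3 and 4, while the number lower was 2 when BPA replicate 2 was left out and 0 when any other library was.

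The other arms of the unfolded protein response act through ATF6 and XBP1, which induce chaperones and folding enzymes. Of 24 genes of these arms 1 was higher and 4 lower, against 4.37% and 6.28% of all tested genes, with a median log2 fold change of -0.15. Pdia6 and P4hb, which encode disulfide isomerases, fell by 0.80 and 0.51 on the log2 scale, Derl3 fell by 1.70 and Sec61b by 0.79. Sel1l, a scaffold of endoplasmic reticulum degradation, rose by 0.88. Pdia6 just missed the threshold when untreated replicate 1 was left out (edgeR adjusted p = 0.0502). P4hb, Sec61b and Sel1l kept their calls only when BPA replicate 2 was left out (at most 0.145, 0.207 and 0.112 in edgeR otherwise). Derl3 missed the threshold in 4 of the 6 fits, those that dropped untreated replicate 1 or 2 or BPA replicate 1 or 3 (at most 0.0999 in edgeR). Dropping BPA replicates 1, 2 and 3 in turn gave 1, 7 and 1 lower genes, and dropping untreated replicates 1, 2 and 3 gave 0, 2 and 2. The number higher was 4 when BPA replicate 2 was dropped and 0 when any other library was. Correcting for GC content and length also ended the calls of Sel1l and Sec61b (0.43 and -0.44, edgeR adjusted p = 0.167 and 0.189). Messages of Atf6 (39.1 ± 8.26 CPM in BPA and 29.7 ± 10.1 CPM in untreated cultures) and Xbp1 (199 ± 36.9 CPM in BPA and 256 ± 22.8 CPM in untreated cultures), chosen after their values were seen, did not pass (SD, n = 3 each; edgeR adjusted p = 0.435 and 0.197). Splicing of Xbp1, which makes its active form, is not visible in gene counts.

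Upstream of ATF4, 1 of 11 listed genes that could be tested was higher and 1 lower, against 4.37% and 6.28% of all tested genes, with a median log2 fold change of 0.37. Ppp1r15b, a regulatory subunit that directs a phosphatase to eIF2α, rose (245 ± 34.8 CPM in BPA and 99.5 ± 8.21 CPM in untreated cultures, SD, n = 3 each; 1.30, SE 0.17, edgeR adjusted p = 5.5e-04). Ppp1ca, a catalytic subunit of that phosphatase, fell by 0.81 on the log2 scale (SE 0.14, edgeR adjusted p = 0.00291). Of the eIF2α kinases, chosen after their values were seen, Eif2ak1, Eif2ak3 and Eif2ak4 were at 0.27, 0.31 and 1.03 and did not pass (edgeR adjusted p = 0.62, 0.57 and 0.141). Of these, Eif2ak4 was higher in every BPA library than in every untreated one, while the groups overlapped for Eif2ak1 and Eif2ak3. The remaining kinase gene, Eif2ak2, had too few counts to be tested, with 8, 33 and 19 counts in BPA libraries and 0 in each untreated library. Their activity is set by phosphorylation, which transcript counts do not show. The number higher was 3 without BPA replicate 2.

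Among 10 genes associated with CHOP, 3 of them also in the lists above, 2 were higher and 0 lower, against 4.37% and 6.28% of all tested genes, with a median log2 fold change of 0.39. Bbc3, the gene of the cell death activator PUMA, rose by 2.00 (SE 0.23, edgeR adjusted p = 2.8e-04). Ppp1r15a, which encodes the inducible eIF2α phosphatase subunit GADD34, rose by 0.53 (SE 0.15, edgeR adjusted p = 0.047) and kept its call only when BPA replicate 2 was the library left out (at most 0.197 in edgeR otherwise). The number higher was therefore 1 when any of the other 5 libraries was dropped.

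**Figure D4:**
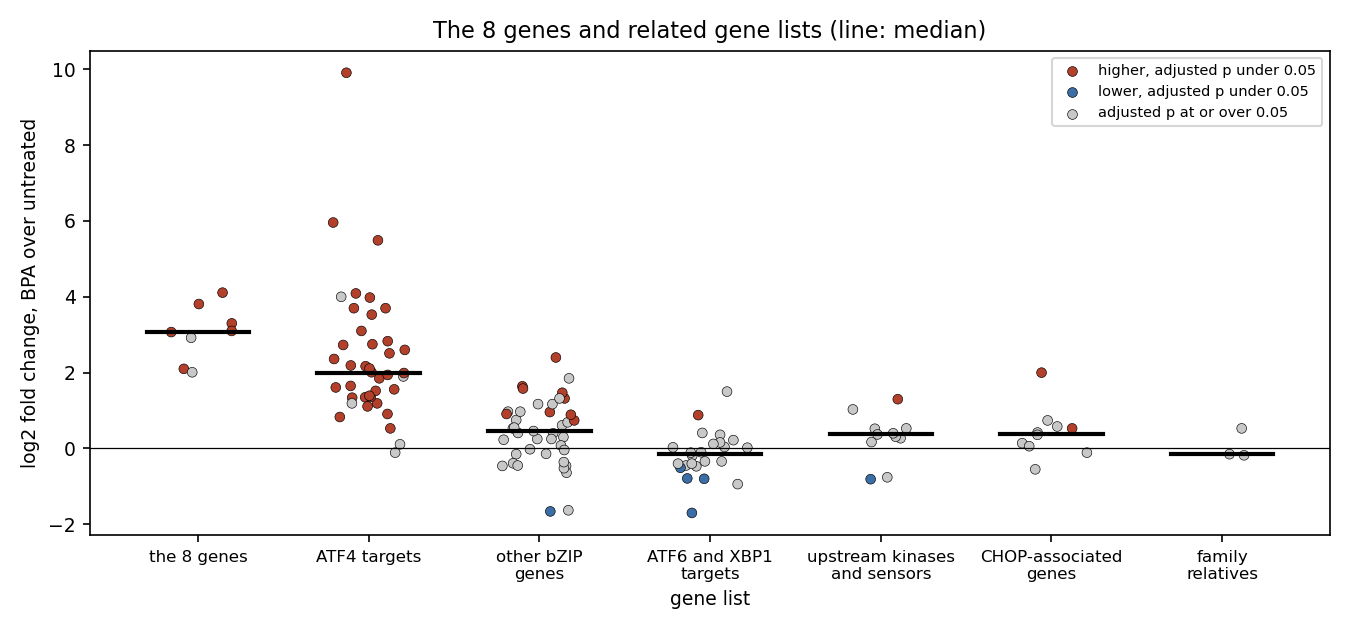
Log2 fold change, BPA over untreated, of every tested gene in the 8-gene set and 6 related lists, with medians as black lines, red for genes called higher, blue for genes called lower and grey for the rest. The 8 genes (median 3.09) and the ATF4 targets (2.00) lie above the other lists, whose medians lie between -0.15 and 0.46.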

How the data were processed

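The deposited table holds raw gene counts made by the authors and FPKM values they derived from them. Dividing a deposited count by its FPKM and its column total gave the same gene length in every sample, to a relative deviation of at most 9.4e-04, and FPKM were used for nothing else. TopHat2 2.0.9, HTSeq and mm10 are named in the submitters' processing notes. Not given in the sources used here are the strand setting, the read length and the annotation release. Total RNA went into TruSeq v2 libraries, per the labels' protocols.

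Columns were matched to samples by the code in the titles. Low counts were removed by filterByExpr and libraries scaled by TMM. The quasi-likelihood test of edgeR 4.0.16 (R 4.3.3) was run over 13287 genes, with Benjamini-Hochberg adjustment at 0.05. SE is the log2 fold change over the square root of F. Depth and a biological coefficient of variation of 0.438 limit the precision for rare transcripts. CPM per kb is CPM over the recovered length. Likeness used log2(CPM + 0.5) of genes with a mean of at least 1 CPM, without predicted models. Exon overlaps come from GENCODE vM21, promoters from RefSeq.

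The genes, lists and tests were chosen with earlier results of these data known. The rule for named genes took the 8, up to 6 called genes of each list by p-value (the 2 most abundant where none passed), and the 5 most like Atf4. Of listed symbols, Dele1 was not found under that name and is not used here. Alternatives were DESeq2 1.42.0, limma-voom (limma 3.58.1), other scalings and filters, an adjusted p of 0.01, a replicate block, a lowess correction for GC content and length, and leaving out each sample.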

Additional observations from a re-analysis of the deposited data

How the results depend on the processing

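Atf4, Trib3, Atf3, Atf5 and Ddit3 passed as higher under all 16 alternatives, and Ddit3 had the highest edgeR adjusted p among them (0.00981). The number of the 8 genes called higher ranged from 5 to 8, with 8 in DESeq2. Cebpb (2.10) did not pass at 0.01, and ranged from 1.71 to 2.43 without single samples. Cebpg passed in DESeq2 (2.01), limma-voom (2.41), with no low-count filter (2.02), with at least 1 CPM in 3 samples (2.01) and with a replicate block (2.42), and ranged from 1.52 to 2.83 without single samples. Its edgeR, DESeq2 or limma adjusted p ranged from 5.5e-05 to 0.173. Nupr1 passed in DESeq2 (2.92), with no filter (2.93) and after the GC and length correction (2.81), with an adjusted p from 0.0061 to 0.147 in DESeq2, limma or edgeR. The cause was not tested.

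ATF4 targets called higher numbered 29 to 36. Genes of the ATF6 and XBP1 arms called higher numbered 2 in DESeq2, with no filter or with a replicate block, 0 at 0.01, and 0 to 4 without single samples; those lower numbered 8 after the GC and length correction, 1 at 0.01, and 0 to 7. Other bZIP genes called higher numbered 2 to 13 over all 16 alternatives, with 2 at 0.01 and 2 to 8 without single samples. Those lower numbered 0 in limma-voom, with library size alone, no filter, a replicate block or 0.01, and 0 to 2 without single samples. CHOP-associated genes higher numbered 1 at 0.01 and 1 to 3 without single samples, and upstream genes higher 1 to 3. Nupr1l was at 0.07 in limma-voom, and at 0.00 when the replicate block or the GC and length correction was used. Without single samples it ranged from -0.43 to 0.55, and Trib1 from -0.52 to 0.04.

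Among single calls, limma-voom ended those of Fosb, Crebrf, Nfil3 and Batf3, and library size alone those of Crebrf, Batf3 and Sec61b. Library size alone also ended the call of the marker Id4 (-0.90, edgeR adjusted p = 0.0574). Batf3 also lost its call with no filter, a replicate block or the GC and length correction.

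For same-numbered samples the correlation of deviations was -0.0205, 0.0612 and 0.0672. For differently numbered pairs it ran from -0.0792 to 0.028, so 0.0612 and 0.0672 lay above all of these. With 3 samples a group such small values cannot decide whether replicate numbers pair the samples. With the replicate block 7 of the 8 genes passed. Counting error alone left the ratio of Nupr1 between 5.08 and 10.5, from 1 to 19 counts in untreated libraries.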
